A study of Mus musculus with 19 samples.

Results

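The comparison described here set natural killer (NK) cells given interleukin-2 (IL-2) together with a JAK1 inhibitor at 0.25 µM against NK cells given neither, to show which IL-2 changes were still seen with the inhibitor present. No sample of the series held the inhibitor without IL-2. Effects of the compound itself therefore cannot be told apart from changes made by IL-2. Its samples were chosen by their labels alone: 2 titled with the code of the JAK1 inhibitor at 0.25 µM and 3 titled as untreated, which made 5 of the 19 samples of the series. No measured value entered the choice. All cells were enriched by negative selection from spleens of male C57BL/6 mice aged 6 weeks, with no genetic change named, and each sample was hybridised to 1 Affymetrix Mouse Gene ST array. The cells with inhibitor received IL-2 at 250 U/ml for 8 h according to the design text. Cells with IL-2 alone (4 samples, same dose) and cells with IL-2 and a JAK3 inhibitor at 0.25 µM (2 samples) served only to show where the inhibitor group differed from them. Among the untreated samples, replicates 3 and 4 were titled with 8 h of culture, and replicate 2 carried no culture time. Both inhibitors are known here by code names only. The labels do not tell whether the samples of 1 group are different mice or different cultures. Every p-value therefore measures the spread among these samples only, and that spread may be technical.

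IL-2 acts on NK cells through a receptor whose beta chain binds the kinase JAK1 and whose common gamma chain binds JAK3. The kinases phosphorylate STAT5, which enters the nucleus and binds DNA at STAT sites of genes such as Cish and Socs1, whose products then restrain the pathway. The receptors of type I interferons and of interferon-gamma also need JAK1 to signal to their target genes. In NK cells IL-2 is known to raise granzymes and perforin, cytokine genes and the machinery of growth.

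Under the inhibitor some genes lay nearer to the IL-2 than to the untreated level, such as Nkg7 and Clnk, and others overlapped the untreated level, such as Ifit3 and Slfn5. The promoters of these 4 genes are shown as examples that hold the motif named for each pathway, and they were picked for holding it. The sequences are the 250 bases before the transcription start in the RefSeq table for GRCm38.p6, written 5′ to 3′ on the strand of the gene. Capitals mark matches, on either strand, of the interferon response element core GAAANNGAA in the promoters of Ifit3 (chr19:34583279-34583528, plus strand) and Slfn5 (chr11:82951852-82952101, plus strand), and of the STAT site TTCNNNGAA in those of Nkg7 (chr7:43436888-43437137, plus strand) and Clnk (chr5:38876694-38876943, minus strand).
Ifit3: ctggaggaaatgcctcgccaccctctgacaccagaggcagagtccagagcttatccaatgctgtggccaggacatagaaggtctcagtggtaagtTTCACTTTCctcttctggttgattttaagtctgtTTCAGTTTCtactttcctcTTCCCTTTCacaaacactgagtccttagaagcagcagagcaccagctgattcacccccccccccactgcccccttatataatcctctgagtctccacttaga
Slfn5: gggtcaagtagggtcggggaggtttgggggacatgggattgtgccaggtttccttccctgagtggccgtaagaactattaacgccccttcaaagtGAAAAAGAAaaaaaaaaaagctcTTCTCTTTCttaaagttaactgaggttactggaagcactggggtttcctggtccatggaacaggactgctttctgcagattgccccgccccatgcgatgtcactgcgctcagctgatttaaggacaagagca
Nkg7: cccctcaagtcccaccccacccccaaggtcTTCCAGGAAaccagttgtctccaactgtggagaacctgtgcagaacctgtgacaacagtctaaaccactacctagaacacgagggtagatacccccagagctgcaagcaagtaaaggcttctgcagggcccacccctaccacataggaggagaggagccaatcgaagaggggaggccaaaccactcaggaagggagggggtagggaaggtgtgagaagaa
Clnk: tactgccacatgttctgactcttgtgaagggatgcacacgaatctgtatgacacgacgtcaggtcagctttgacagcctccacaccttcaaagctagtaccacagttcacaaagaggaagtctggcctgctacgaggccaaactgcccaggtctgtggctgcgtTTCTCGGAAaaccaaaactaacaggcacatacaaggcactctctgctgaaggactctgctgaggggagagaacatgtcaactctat
Ifit3 held 3 interferon matches, beginning 155, 121 and 102 bases before the start, and Slfn5 held 2, beginning 155 and 132 bases before it. Nkg7 and Clnk each held 1 STAT match, beginning 220 and 86 bases before the start. Among 27 type I interferon-stimulated genes with a promoter in the table, 12 (44.4%) held the interferon core, against 8.18% of all 27025 genes. The STAT site was found in 6 of 34 IL-2/STAT5 response genes (17.6%), 5 of 27 type I interferon-stimulated genes (18.5%), 5 of 16 interferon-gamma-responsive genes (31.2%) and 2 of 22 NK cell receptor genes (9.09%), against 8.13% of all genes. Gzmb, Prf1, Xcl1, Ncr1 and Klrb1a had 0 STAT matches in the same 250 bases. Cish and Socs1, named above as genes with STAT sites, also had 0 there. Ifng, which rose over untreated cells, and Il7r, which fell, held 1 each. A match is a run of letters and not a measured binding site.

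The deposited intensities lay on 2 scales. Of the samples used here, JAK1 inhibitor replicate 1, JAK3 inhibitor replicate 1, IL-2 replicates 1 and 2 and untreated replicate 2 belonged to a high-intensity set, in which 20% of probe sets held a value shared by at least 3 samples. The other samples belonged to a low-intensity set, lower by a median of 1.64 on the log2 scale. Each comparison was fitted with a term for the set, and the levels below are log2 intensities with that term removed from the high set. Levels of different genes cannot be set against each other on these arrays. After adjustment, samples of a group correlated at 0.976 to 0.996 over 19752 genes. The 15 NK cell markers summed to 9199 and 10670 intensity units in the JAK1 inhibitor samples and 10790 to 14150 in the IL-2 samples, against 3589 to 4550 in untreated cells. Of these markers 10 were higher in the JAK1 inhibitor samples than in untreated cells (0.982% of all genes) and 0 lower (0.339% of all genes) at an adjusted p under 0.05, with 2 called without JAK1 inhibitor replicate 2 and 8 without replicate 1. Markers of macrophages, neutrophils, B cells and dendritic cells had values in every sample as well, but so had every probe set, and 0 deposited values were under 1. Detection values were not used, so such values do not show whether these cells were present. In whole samples, fewer cells of a type and less RNA per cell cannot be told apart.

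With JAK1 inhibitor at 0.25 µM, NK cells cultured with IL-2 still had higher levels of some genes than untreated cells. These included 7 of 24 cytotoxic genes, 8 of 23 cytokine and chemokine genes and 12 of 30 NK cell receptor genes. Of 37 type I interferon-stimulated genes 1 was called, but 35 had a difference above 0, with a list median of 0.42 (0.0376 over all genes). At an adjusted p under 0.05 (limma, Benjamini-Hochberg over 19752 genes), 194 genes (0.982%) were higher in the JAK1 inhibitor samples than in untreated cells and 67 (0.339%) were lower. Of these, 96 were at least 2-fold higher and 28 at least 2-fold lower. The median difference over all genes was 0.0376 on the log2 scale. The number of calls leaned on both inhibitor samples: 63 genes were called without replicate 2 of that group and 88 without replicate 1. Quantile normalization called 786 genes, with 422 higher and 364 lower, so higher genes made up 53.7% of calls there and 74.3% in the fit above. Leaving out untreated replicate 3 gave 159 higher and 123 lower genes.

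Part of the cytotoxic effector genes rose. Of 24 measured cytotoxic granule and death ligand genes, 7 were higher than in untreated cells (0.982% of all genes), 0 were lower (0.339%) and 17 did not pass. The list's median difference was 0.38 (0.0376 over all genes). Gzmb, which encodes the protease granzyme B, stood at 10.55 and 10.28 in the JAK1 inhibitor samples and 11.41, 11.46, 12.17 and 12.03 in the IL-2 samples, against 7.04, 5.88 and 6.80 in untreated cells. The 3 groups did not overlap, and the inhibitor samples lay between the others. Relative to untreated cells the difference was 3.84 ± 0.41 on the log2 scale (SE), a fold of 14.3 (limma, adjusted p = 2.05e-05). Within the high and the low set it was 3.50 and 3.94. The Gzmb difference from IL-2 alone, -1.36 ± 0.39, did not pass (limma, adjusted p = 0.0776).

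Prf1, the pore-forming protein perforin, stood at 8.52 and 9.40 in the JAK1 inhibitor samples and 9.52 to 10.12 in the IL-2 samples, against 7.26, 6.79 and 6.99 in untreated cells. The rise over untreated cells was 1.94 ± 0.28 (SE; limma, adjusted p = 0.000557), and the inhibitor samples lay further apart from each other than for Gzmb. Nkg7, a granule membrane protein, was called at a fold of 3.77 with levels of 11.14 and 11.12 under the inhibitor against 9.31, 9.16 and 9.17 in untreated cells. Other risers of the list included the protease inhibitor gene Cst7 (1.38) and the death ligand gene Fasl (1.20). Outside the list, the serpin gene Serpinb9b rose by 1.96 and F2rl2, a receptor of the protease-activated family, by 2.04. The list had 3 higher members without JAK1 inhibitor replicate 2, where the adjusted p was 0.0832 for Prf1 and 0.0502 for Fasl.

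Of 23 cytokine and chemokine genes, 8 were higher than in untreated cells (0.982% of all genes) and 1, Ccl9, was lower (0.339%). The list's median difference was 0.26 (0.0376 over all genes). Ifng, which encodes interferon-gamma, stood at 9.17 and 8.69 in the JAK1 inhibitor samples and 9.78, 9.76, 10.27 and 9.90 in the IL-2 samples, against 6.09, 6.27 and 6.09 in untreated cells. The groups were clear of each other, with the inhibitor samples nearer to IL-2 than to untreated cells. The rise was 2.77 ± 0.20 (SE; fold 6.84; limma, adjusted p = 3.19e-07), and the level was 0.499 of that with IL-2 alone (limma, adjusted p = 0.00607, and 0.375 without JAK1 inhibitor replicate 2).

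Xcl1, a chemokine that attracts cross-presenting dendritic cells, stood at 9.63 and 9.91 under the JAK1 inhibitor and 9.95 to 10.56 with IL-2, against 7.0, 6.6 and 6.93 in untreated cells. Its rise was 2.93 ± 0.24 (SE; limma, adjusted p = 1.7e-06), and the difference from IL-2 alone was -0.48 ± 0.23 (SE; limma, adjusted p = 0.402). Ccl3, an inflammatory chemokine, rose by 2.04 and Osm, a cytokine of the IL-6 family, by 1.12. Ccl9, a chemokine of myeloid cells, fell by 1.15 on the log2 scale. Without any 1 sample, 6 to 8 list members were called higher.

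Receptor genes of NK cells had nearly the same median difference from untreated cells under the inhibitor as with IL-2 alone. Of 30 NK cell receptor genes, 12 exceeded untreated cells (0.982% of all genes) and 0 were lower (0.339%). Their median difference was 0.59 under the inhibitor and 0.61 with IL-2 alone. The direct comparison of the inhibitor with IL-2 called 1 member higher and 1 lower, where 0.729% of all genes were higher and 1.52% lower. Ncr1, the receptor NKp46, stood at 10.37 and 10.51 in the JAK1 inhibitor samples and 10.22, 10.15, 10.46 and 10.41 in the IL-2 samples, against 8.15, 7.88 and 8.14 in untreated cells. Inhibitor and IL-2 samples overlapped, and both lay above all untreated samples. The rise was 2.38 ± 0.22 (SE; fold 5.21; limma, adjusted p = 4.86e-06), and the difference from IL-2 alone had a 95% interval of -0.30 to 0.56.

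Klrb1a, an NKR-P1 family lectin receptor, stood at 8.26 and 7.80 under the JAK1 inhibitor and 8.38, 8.26, 7.87 and 7.94 with IL-2, against 4.97, 5.73 and 5.67 in untreated cells, a rise of 2.57 ± 0.31 (SE; limma, adjusted p = 8.27e-05). Its inhibitor and IL-2 samples overlapped too, with an interval of -0.70 to 0.53 for their difference. The related Klrb1f rose by 1.64, Klrb1c (NK1.1, the marker named in the labels) by 1.5, the Ly49 receptor Klra3 by 1.42, the checkpoint receptor Tigit by 1.20 and the SLAM family receptor Cd244a by 1.29. Near-identical family members can share probe sequence on such arrays, so single Klrb1 and Klra genes are uncertain. Without JAK1 inhibitor replicate 2, 4 list members were called, and without replicate 1, 8 were. The calls of Klrb1c (adjusted p = 0.107 without replicate 1 and 0.237 without replicate 2), Cd244a (0.0946 without replicate 2) and Tigit (0.0993 without replicate 2) were lost that way. Outside the list, the adaptor gene Clnk rose by 2.22 ± 0.21 (SE; limma, adjusted p = 4.86e-06), with levels of 7.80 and 7.36 under the inhibitor against 5.42, 5.15 and 5.52 in untreated cells.

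Among 21 transcription factor genes of NK cells, 4 were higher (0.982% of all genes) and 0 lower (0.339%). They were Tbx21 (1.26), the T-box factor of NK maturation, Runx3 (1.21), Id2 (1.07), an inhibitor of E proteins that innate lymphocytes need, and Gata3 (0.98). For each of them the call was lost without JAK1 inhibitor replicate 2, at adjusted p = 0.266, 0.223, 0.0502 and 1 in the same order. The call of Gata3 was also lost without replicate 1 of the inhibitor (0.0741) and without untreated replicate 3 (0.123).

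**Figure D1:**
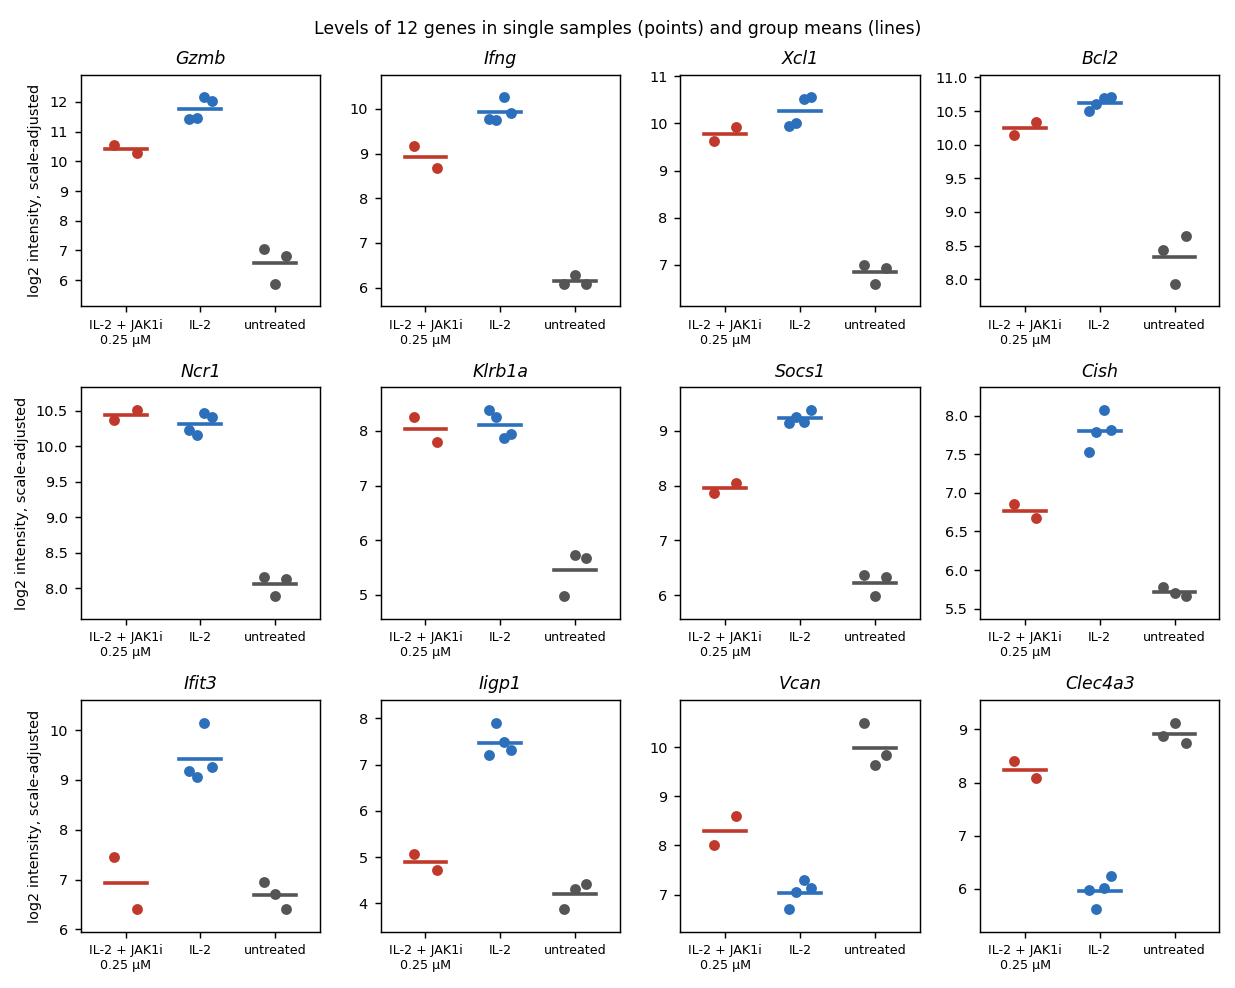
Scale-adjusted log2 intensity of 12 genes in the 2 JAK1 inhibitor 0.25 µM samples (red), the 4 IL-2 samples (blue) and the 3 untreated samples (grey), with points for samples and lines for group means. Ncr1 and Klrb1a samples of the inhibitor and IL-2 groups overlap, Gzmb, Ifng, Socs1 and Cish lie between IL-2 and untreated cells, Ifit3 overlaps the untreated samples, and Clec4a3 lies just below them.

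IL-2/STAT5 response genes were raised in part. Of 42 IL-2/STAT5 response genes, 15 rose over untreated cells (0.982% of all genes) and 0 fell (0.339%). The list's median difference was 0.54 under the inhibitor (0.0376 over all genes) and 0.95 with IL-2 alone. Of all genes, 1.52% were lower under the inhibitor than with IL-2 alone. Against IL-2 alone, 12 members were lower, with 2 without JAK1 inhibitor replicate 2 and 5 without replicate 1. Cish, which encodes a feedback inhibitor of the IL-2 receptor, stood at 6.86 and 6.67 in the JAK1 inhibitor samples and 7.53, 7.79, 8.08 and 7.82 in the IL-2 samples, against 5.78, 5.70 and 5.66 in untreated cells. The 3 groups did not overlap. Its rise over untreated cells was 1.06 ± 0.17 (SE; limma, adjusted p = 0.00134, and 0.064 without JAK1 inhibitor replicate 1), and it was 0.486 of the level with IL-2 alone (limma, adjusted p = 0.00101, and 0.106 without replicate 2).

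Socs1, another feedback inhibitor of JAK kinases, stood at 7.87 and 8.05 under the JAK1 inhibitor and 9.15, 9.26, 9.15 and 9.38 with IL-2, against 6.37, 5.98 and 6.33 in untreated cells. It lay between the groups in both inhibitor samples, 1.74 ± 0.16 above untreated cells (SE; limma, adjusted p = 4.86e-06) and -1.27 from IL-2 alone (limma, adjusted p = 0.000139). Of the family members that were not called against untreated cells, Socs2 differed by 0.57 and Socs3 by 0.36 under the inhibitor, with values of 0.70 and 0.86 for IL-2 alone. Pim1, a kinase gene induced through STAT5, stood at 8.30 and 8.49 under the inhibitor and 9.0, 9.79, 9.48 and 9.70 with IL-2, against 8.80, 8.12 and 8.32 in untreated cells. Its inhibitor samples lay among the untreated ones, with a difference of -0.02 (95% interval -0.50 to 0.47).

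Bcl2, the anti-apoptotic protein, stood at 10.15 and 10.34 under the JAK1 inhibitor and 10.50, 10.60, 10.69 and 10.71 with IL-2, against 8.43, 7.93 and 8.64 in untreated cells. It rose by 1.91 ± 0.20 (SE; limma, adjusted p = 1.55e-05), and its interval against IL-2 alone was -0.78 to 0.01. The costimulatory receptor Tnfrsf9 (4-1BB) rose by 2.14, the cyclin gene Ccnd2 by 1.74 and the growth regulator Myc by 1.36, against 3.43, 2.72 and 2.32 with IL-2 alone in the same order. All 3 were also lower under the inhibitor than with IL-2 alone (limma, adjusted p = 0.00193, 0.016 and 0.0213), but each of these calls was lost without JAK1 inhibitor replicate 1 (0.0858, 0.256 and 0.397) and without replicate 2 (0.0575, 0.211 and 0.168). Those of Ccnd2 and Myc were also lost without IL-2 replicate 3 (0.0612 and 0.0763) or 4 (0.0674 and 0.0705), and that of Myc without IL-2 replicate 2 (0.0585). Without JAK1 inhibitor replicate 2 the rise of Myc had an adjusted p of 0.155, and the list had 9 higher members.

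The IL-2 receptor chain genes Il2ra and Il2rb rose as well. Il2ra, the alpha chain CD25, stood at 8.50 and 8.08 under the JAK1 inhibitor and 9.49, 9.66, 9.82 and 9.47 with IL-2, against 7.69, 7.01 and 7.34 in untreated cells. Its rise of 0.95 ± 0.22 passed (SE; limma, adjusted p = 0.0302) but was lost without either inhibitor sample (0.487 and 0.0946) and without untreated replicate 3 or 4 (0.0786 and 0.0699). Il2rb, the beta chain, rose by 1.02 (adjusted p = 0.346 without JAK1 inhibitor replicate 2). Il7r, the alpha chain of the IL-7 receptor, fell by 0.91 on the log2 scale, against -1.85 with IL-2 alone. The fall of Il7r was lost without either inhibitor sample (0.314 and 0.163) and without untreated replicate 2 (0.0655). Jak1, whose product the inhibitor targets, stood at 10.46 and 10.69 under the inhibitor, against 10.81, 10.35 and 10.67 in untreated cells, and overlapped.

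Type I interferon-stimulated genes were lower under the inhibitor than with IL-2 alone. Of 37 measured members, 1 was higher than in untreated cells (0.982% of all genes) and 0 were lower (0.339%). By limma, 9 had an unadjusted p under 0.05, against 1822 of all 19752 genes. The list's median difference from untreated cells was 0.42 under the inhibitor and 1.87 with IL-2 alone. In the direct comparison of the JAK1 inhibitor with IL-2, 31 of 37 members were lower (1.52% of all genes) and 0 higher. Without untreated replicate 2, in which the members averaged 7.12 on the log2 scale against 6.27 and 6.6 in untreated replicates 3 and 4, 9 members were higher than in untreated cells. Without JAK1 inhibitor replicate 2, 2 members were lower than with IL-2 alone, and without replicate 1, 15 were.

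Ifit3, an antiviral protein induced by interferons, stood at 7.45 and 6.41 in the JAK1 inhibitor samples and 9.19, 9.05, 10.15 and 9.27 in the IL-2 samples, against 6.95, 6.71 and 6.40 in untreated cells. The inhibitor samples overlapped the untreated ones and lay below all IL-2 samples. The difference from untreated cells was 0.24 ± 0.37 (SE; limma, adjusted p = 0.951; 95% interval -0.53 to 1.01), and that from IL-2 alone was -2.49 ± 0.35 (SE; limma, adjusted p = 0.000568, and 0.0967 without JAK1 inhibitor replicate 2). Slfn5, a Schlafen family gene, stood at 5.92 and 5.56 under the inhibitor and 7.80, 8.02, 8.96 and 8.40 with IL-2, against 6.59, 5.36 and 5.35 in untreated cells, and it overlapped the untreated samples as Ifit3 did. The related Ifit3b differed by 0.09 from untreated cells and by -2.07 from IL-2 alone (limma, adjusted p = 0.000625, and 0.0867 without JAK1 inhibitor replicate 2).

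Iigp1, a member of the interferon-gamma-responsive list, encodes an interferon-inducible GTPase that acts on intracellular parasites. It stood at 5.06 and 4.73 under the JAK1 inhibitor, against 3.87, 4.31 and 4.43 in untreated cells. With IL-2 it stood at 7.20, 7.91, 7.49 and 7.31. Both inhibitor samples lay above the untreated ones and well below IL-2. The difference from untreated cells was 0.69 (limma, adjusted p = 0.0991), and that from IL-2 alone was -2.58 ± 0.18 (SE; fold 0.167; limma, adjusted p = 1.62e-07). Usp18, which removes ISG15 from proteins, differed by 0.64 from untreated cells and -2.36 from IL-2 alone, and Irf7, the interferon regulatory factor, by 0.36 and -1.74. The 1 member of the type I list called against untreated cells was Zbp1, a sensor of nucleic acids, at 1.58 ± 0.32 (SE; limma, adjusted p = 0.0135). That call was lost without either inhibitor sample (0.195 and 0.176).

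Interferon-gamma-responsive genes were raised in part. Over all genes, 0.982% were higher than in untreated cells, 0.339% were lower and the median difference was 0.0376. Against IL-2 alone, 1.52% of all genes were lower. Of 20 members, 9 rose over untreated cells and 0 fell, with a median difference of 0.77 under the inhibitor and 1.46 with IL-2 alone, and 12 were lower than with IL-2 alone (2 without JAK1 inhibitor replicate 2 and 8 without replicate 1). Cxcl9, a chemokine induced by interferon-gamma, stood at 9.49 and 8.71 in the JAK1 inhibitor samples and 10.42, 10.31, 10.97 and 10.72 in the IL-2 samples, against 5.67, 6.23 and 6.35 in untreated cells. The groups were clear of each other, at 3.02 ± 0.27 above untreated cells (SE; fold 8.09; limma, adjusted p = 4.71e-06) and -1.51 from IL-2 alone (limma, adjusted p = 0.00257, and 0.256 without JAK1 inhibitor replicate 2). The guanylate-binding proteins Gbp4 and Gbp7 rose by 1.92 and 1.27, and the immunoproteasome subunit gene Psmb10 by 0.95. Gbp7 had an adjusted p of 0.0517 without JAK1 inhibitor replicate 1, and Psmb10 had 0.135 without that sample and 0.0501 without replicate 2. Cxcl10, a chemokine of the same receptor as Cxcl9, stood at 8.11 and 6.95 under the inhibitor and 9.59, 9.55, 10.19 and 9.47 with IL-2, against 6.50, 5.98 and 6.18 in untreated cells. Its inhibitor samples lay far apart, and its call (limma, adjusted p = 0.0475) was lost without JAK1 inhibitor replicate 1 (0.72), untreated replicate 3 (0.116) or untreated replicate 4 (0.104). The list had 3 higher members without JAK1 inhibitor replicate 1 and 5 without replicate 2. Of the 16 members with a promoter in the RefSeq table, 8 held the interferon core.

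Genes of cell growth had few calls against untreated cells, but so had all genes (0.982% higher and 0.339% lower). Of 48 ribosome biogenesis and nucleolar genes, 0 passed an adjusted p under 0.05 with limma. At an unadjusted p under 0.05 there were 13, against 1822 of all 19752 genes. The median difference was 0.29 under the inhibitor (0.0376 over all genes) and 0.88 with IL-2 alone. Of the members, 39 had a difference above 0 under the inhibitor. Against IL-2 alone 16 members were lower (1.52% of all genes) and 0 higher (0.729%). The members with the smallest p included Polr1b, a subunit of RNA polymerase I, at 0.81 (limma, adjusted p = 0.184), and Ddx21, a nucleolar helicase, at 0.68. Of 22 cytosolic and mitochondrial chaperone genes and of 23 endoplasmic reticulum chaperone genes, 0 passed by limma (1 and 0 at an unadjusted p under 0.05), and 8 and 6 were lower than with IL-2 alone (0 to 11 and 0 to 7 without 1 sample). The count of 16 ribosome biogenesis genes was 1 without JAK1 inhibitor replicate 2, 2 without replicate 1 and 29 without IL-2 replicate 1, and without the other IL-2 samples it was 7 to 8.

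Single genes of growth did rise. Srm, spermidine synthase of the polyamine pathway, stood at 9.28 and 9.34 in the JAK1 inhibitor samples and 9.97, 10.25, 10.18 and 10.09 in the IL-2 samples, against 8.14, 7.71 and 8.16 in untreated cells. The groups were clear of each other, with a rise of 1.31 ± 0.20 (SE; limma, adjusted p = 0.00106, and 0.054 without JAK1 inhibitor replicate 2). Srm was the only called gene of 23 in the polyamine, nucleotide and one-carbon list. Of 38 genes of the G1/S transition and DNA replication, 1 was called, Ccnd2, and of 28 G2/M genes 0 were (0 at an unadjusted p under 0.05 as well). The tryptophanyl-tRNA synthetase gene Wars, of the amino acid transporter and ATF4 pathway list, rose by 1.47. With the JAK3 inhibitor Wars differed from untreated cells by 1.16, and Srm by 0.29. The proteasome subunit gene Psmb3 and the ATP synthase subunit gene Atp5g1 rose by 0.77 and 0.83, each the only called member of its list of 28 and 29. The calls of Psmb3 and Atp5g1 were lost without JAK1 inhibitor replicate 1 (0.372 and 0.176) and without replicate 2 (0.079 and 0.0549).

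**Figure D2:**
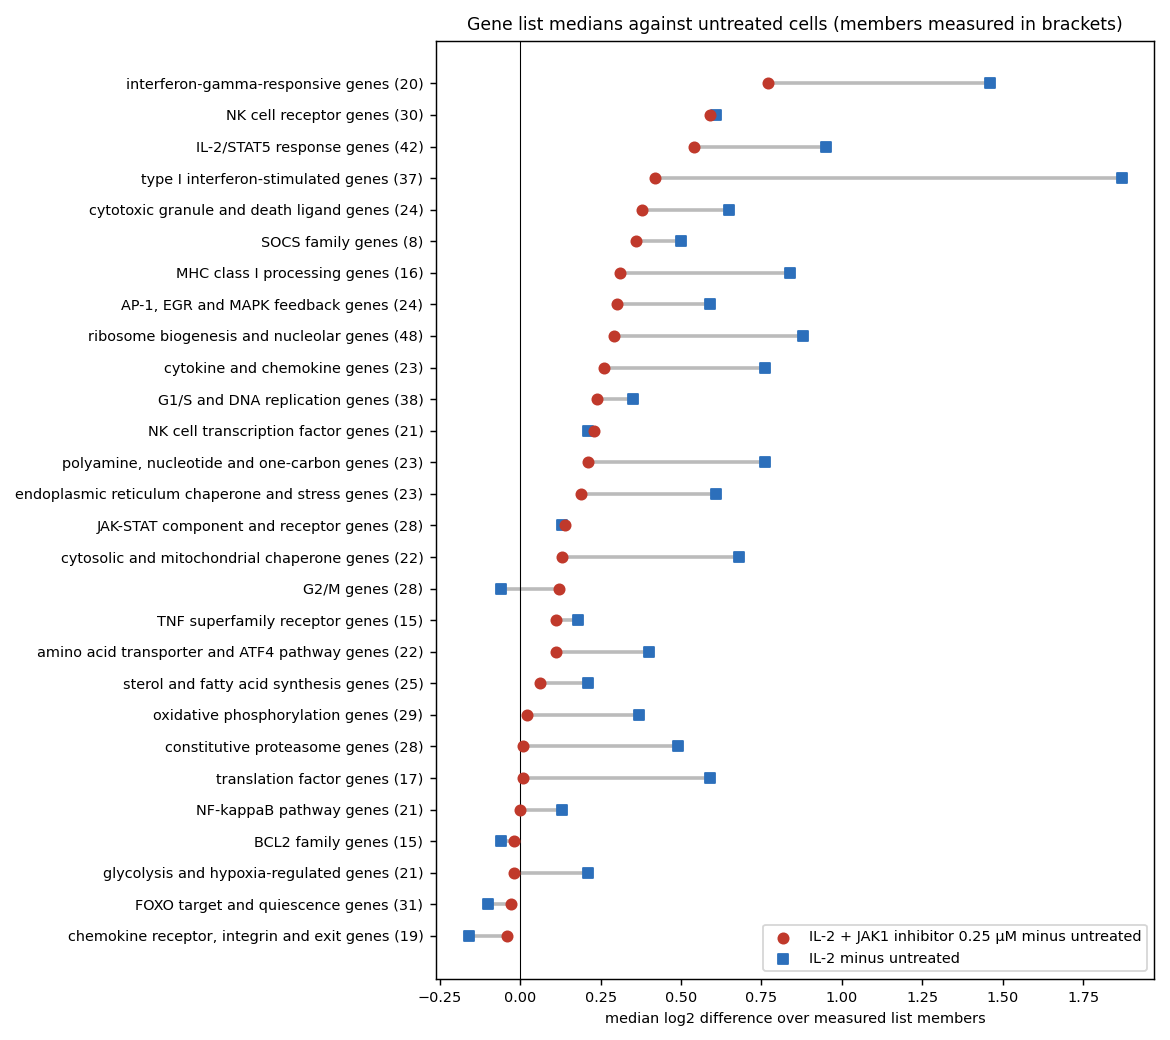
Median log2 difference from untreated cells over the measured members of 28 gene lists, for IL-2 with JAK1 inhibitor at 0.25 µM (red circles) and IL-2 alone (blue squares), joined by a line and ordered by the inhibitor's median. NK cell receptor genes have nearly the same median in both (0.59 and 0.61), and type I interferon-stimulated genes have the widest gap (0.42 and 1.87). Both differences use the same untreated samples.

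The largest falls relative to untreated cells included genes of myeloid cells. Of 15 macrophage and monocyte markers, 6 were lower (0.339% of all genes) and 0 higher (0.982%). Of 15 neutrophil markers 2 were lower, Mmp8 (-1.45) and S100a8 (-1.03). Both neutrophil calls were lost without JAK1 inhibitor replicate 1 (0.119 and 0.162) and without replicate 2 (0.113 and 0.283). Vcan, a proteoglycan gene of monocytes, stood at 8.00 and 8.60 in the JAK1 inhibitor samples and 6.70, 7.04, 7.29 and 7.13 in the IL-2 samples, against 10.50, 9.63 and 9.84 in untreated cells. The inhibitor samples lay between the other groups without overlap. The difference was -1.69 ± 0.24 from untreated cells (SE; limma, adjusted p = 0.000636) and 1.26 from IL-2 alone (limma, adjusted p = 0.00457, and 0.32 without JAK1 inhibitor replicate 2), and within the high and the low set it was -2.50 and -1.13 from untreated cells.

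Clec4d, a C-type lectin receptor of myeloid cells, stood at 6.71 and 6.43 under the JAK1 inhibitor and 5.64, 5.63, 5.86 and 5.73 with IL-2, against 8.08, 8.18 and 7.98 in untreated cells. It fell by 1.51 on the log2 scale (limma, adjusted p = 1.04e-05). Other falls were those of Hpgd, a prostaglandin-degrading enzyme (-1.60), the adhesion receptor genes Adgre4 (-1.58) and Adgre1, which encodes F4/80 (-1.16), the scavenger receptor Cd36 (-1.49), the lipopolysaccharide co-receptor Cd14 (-1.29) and the CSF-1 receptor gene Csf1r (-1.08). Csf1r lost its call without either inhibitor sample (0.245 and 0.118) and without untreated replicate 2 (0.0539), and Cd14 and Adgre1 lost theirs without JAK1 inhibitor replicate 1 (0.098 and 0.121). Cd36 lost its call without replicate 2 (0.0786). Further large falls were those of Ms4a4a, a membrane protein gene of the MS4A family (-1.34), Clec4n, which encodes dectin-2 (-1.34), and Idh1, an isocitrate dehydrogenase (-1.32). Ms4a4a lost its call without either inhibitor sample (0.182 and 0.168) and without untreated replicate 2 (0.0502), and Clec4n without JAK1 inhibitor replicate 2 (0.157). The macrophage and monocyte markers called lower numbered 2 without JAK1 inhibitor replicate 1, and 4 without replicate 2 of the inhibitor or replicate 2 of the untreated cells.

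The summed level of the 15 macrophage and monocyte markers was 5060 and 5372 in the JAK1 inhibitor samples and 2576 to 3350 in the IL-2 samples, against 8552 to 10150 in untreated cells. That of the 15 neutrophil markers was 7104 and 6921 under the inhibitor and 5050 to 5508 with IL-2, against 7801 to 8781 in untreated cells. Across the 3 groups these sums were lowest where the NK cell marker sum was highest, and their part in the gene differences described here was not tested. T cell markers summed to 2995 and 3411 under the inhibitor and 3301 to 3786 with IL-2, against 1919 to 2602 in untreated cells, and 1 of 15 was called, Thy1 (1.99), which activated NK cells also express. Of 14 B cell and of 14 dendritic cell markers, 0 were called by limma. At an unadjusted p under 0.05 there were 1 and 4, against 1822 of all 19752 genes.

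**Figure D3:**
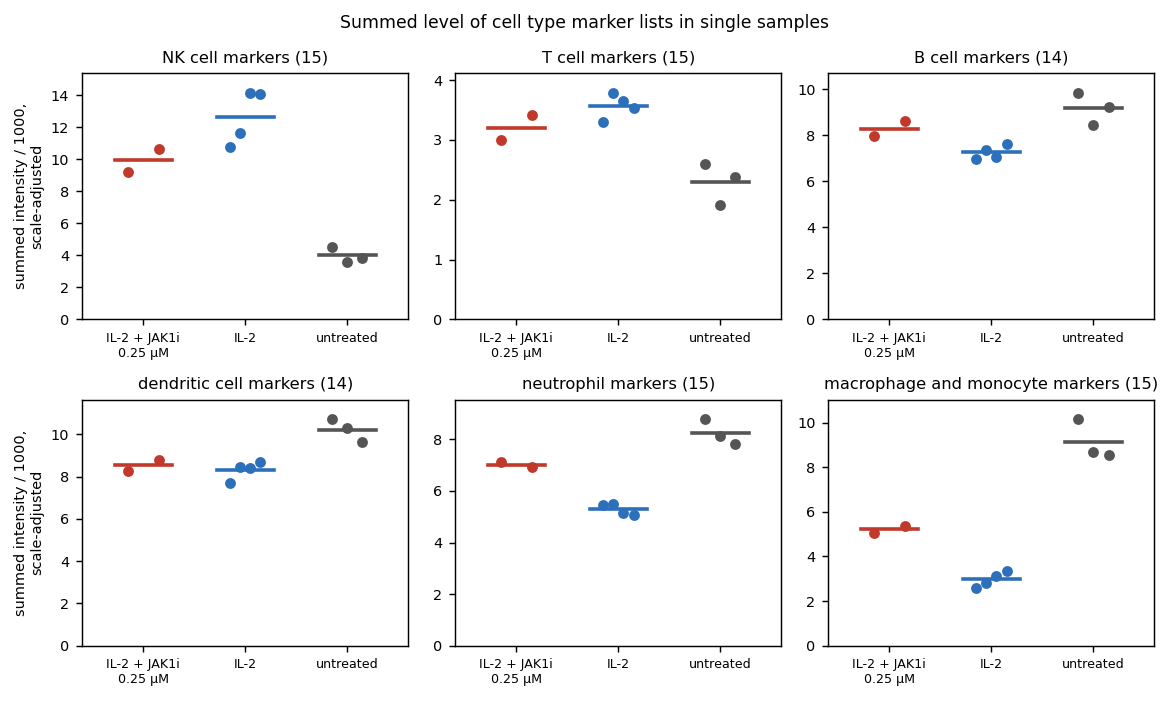
Summed scale-adjusted intensity (divided by 1000, axes from 0) of 6 cell type marker lists in the JAK1 inhibitor 0.25 µM samples (red), IL-2 samples (blue) and untreated samples (grey), with points for samples and lines for means. The macrophage and monocyte sum lies at 5060 and 5372 units under the inhibitor, between the IL-2 samples (2576 to 3350) and the untreated samples (8552 to 10150).

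Other genes were higher under the inhibitor than with IL-2 alone. Against IL-2 alone, 144 genes were higher under the JAK1 inhibitor and 301 lower. Quantile normalization gave 546 higher and 656 lower, so higher genes were 45.4% of calls there and 32.4% in the fit above, and the number of calls was 32 without JAK1 inhibitor replicate 2 (17 higher and 15 lower), 97 without replicate 1 and 723 without IL-2 replicate 1. Leaving out IL-2 replicate 2, 3 or 4 gave 236, 211 or 215 calls. Of the 41 named genes called against IL-2 alone, 8 kept the call without any 1 sample: Socs1, Iigp1, Slfn5 and the 5 described next. Clec4a3, a C-type lectin receptor of dendritic cells and monocytes, stood at 8.40 and 8.08 in the JAK1 inhibitor samples and 5.97, 5.62, 6.02 and 6.23 in the IL-2 samples, against 8.88, 9.13 and 8.74 in untreated cells. The inhibitor samples lay a little below the untreated ones and far above all IL-2 samples. The difference was 2.28 ± 0.24 from IL-2 alone (SE; fold 4.86; limma, adjusted p = 2.8e-05), and -0.67 from untreated cells (limma, adjusted p = 0.312).

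Cd209a, a lectin receptor of dendritic cells, stood at 8.33 and 8.34 under the JAK1 inhibitor and 6.41, 6.47, 6.34 and 6.35 with IL-2, against 8.42, 8.57 and 8.50 in untreated cells. Its inhibitor samples lay 1.94 ± 0.14 above IL-2 alone (SE; limma, adjusted p = 1.62e-07), and the 95% interval against untreated cells was -0.48 to 0.15. Cd7, a surface glycoprotein of lymphocytes, stood at 9.44 and 9.89 under the inhibitor and 7.96, 8.03, 8.04 and 7.86 with IL-2, against 10.02, 9.68 and 9.90 in untreated cells, and its inhibitor and untreated samples overlapped. Clec4a1 and Cd209d were higher than with IL-2 alone by 1.97 and 1.60. Against untreated cells Clec4a1 differed by -0.82 (95% interval -1.24 to -0.39; limma, adjusted p = 0.0519) with no overlap of the groups, and Cd209d by 0.34.

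At the same dose of 0.25 µM the JAK1 and the JAK3 inhibitor differed in 89 genes, 47 higher (0.238%) and 42 lower (0.213%) with the JAK1 inhibitor. This was the only pair of compounds compared. Ifng stood at 9.17 and 8.69 with the JAK1 inhibitor and 6.03 and 6.30 with the JAK3 inhibitor, a difference of 2.76 ± 0.22 (SE; limma, adjusted p = 1.56e-06). The JAK3 inhibitor samples lay at the level of untreated cells for this gene. Gzmb stood at 10.55 and 10.28 with the JAK1 inhibitor and 7.08 and 7.76 with the JAK3 inhibitor, a difference of 2.99 ± 0.45 (SE; limma, adjusted p = 0.00252, but 0.152 without JAK3 inhibitor replicate 1 and 0.0682 without JAK1 inhibitor replicate 1). Ncr1 (2.08), Klrb1a (2.65), Xcl1 (2.50) and Clnk (2.18) were higher with the JAK1 inhibitor as well. By list, 6 of 30 NK cell receptor genes, 10 of 42 IL-2/STAT5 response genes and 5 of 24 cytotoxic genes were higher with the JAK1 inhibitor, and 0 were lower. Without JAK3 inhibitor replicate 1 these counts were 1, 2 and 0, and without any other 1 of the 4 samples they were 3 to 4, 3 to 5 and 2. Median centring gave 5, 7 and 2.

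Type I interferon-stimulated genes had a lower median level with the JAK1 than with the JAK3 inhibitor. The median difference of the 37 members was -0.70 (-0.0242 over all genes). Against untreated cells the list's median difference was 0.42 with the JAK1 inhibitor and 1.19 with the JAK3 inhibitor. Between the inhibitors 1 member, Slfn5, was called lower, where 0.213% of all genes were. Slfn5 stood at 5.92 and 5.56 with the JAK1 inhibitor and 7.25 and 8.11 with the JAK3 inhibitor, a difference of -1.94 ± 0.40 (SE; limma, adjusted p = 0.0315). Ifit3 (-1.46, limma, adjusted p = 0.161, 95% interval -2.30 to -0.61) and Irf7 (-1.43, limma, adjusted p = 0.0631, 95% interval -2.13 to -0.74) did not pass. For the 20 interferon-gamma-responsive genes the median difference between the inhibitors was -0.05. Against untreated cells that list's median was 0.77 with the JAK1 and 0.66 with the JAK3 inhibitor. Its 1 member called higher with the JAK1 inhibitor was Socs1, a call lost without any 1 of the 4 samples. Of the 15 macrophage and monocyte markers 7 were lower with the JAK1 inhibitor, among them Vcan (-1.39), Adgre4 (-1.37) and Cd14 (-1.32), and Nfam1 (-1.39) and Cd300ld (-1.34), receptor genes of myeloid cells, were lower too. The count of 7 was 0 without JAK3 inhibitor replicate 1, 0 without its replicate 2, 0 without JAK1 inhibitor replicate 1 and 1 without its replicate 2, and 1 with median centring. Without JAK3 inhibitor replicate 1 the adjusted p was 0.368 for Vcan, 0.319 for Adgre4, 0.196 for Cd14, 0.222 for Nfam1 and 0.0699 for Cd300ld. Il2ra (0.64, 95% interval 0.15 to 1.13), Il2rb (0.56, 95% interval 0.12 to 1.01) and Myc (0.88, 95% interval 0.36 to 1.40) were not called different between the inhibitors. The count of 89 was 5 without JAK3 inhibitor replicate 1, 19 without its replicate 2, 20 without JAK1 inhibitor replicate 1 and 23 without its replicate 2. Slfn5 lost its call without any 1 of the 4 samples (0.0886 to 0.741). Of the 37 named genes called between the inhibitors, 4 kept the call without any 1 sample, Ifng, Xcl1, Ncr1 and Clnk. Median centring called 33 genes, 69.7% of them higher, against 52.8% in the fit above, and a fit of only the compared groups called 1114, 27.5% of them higher.

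**Figure D4:**
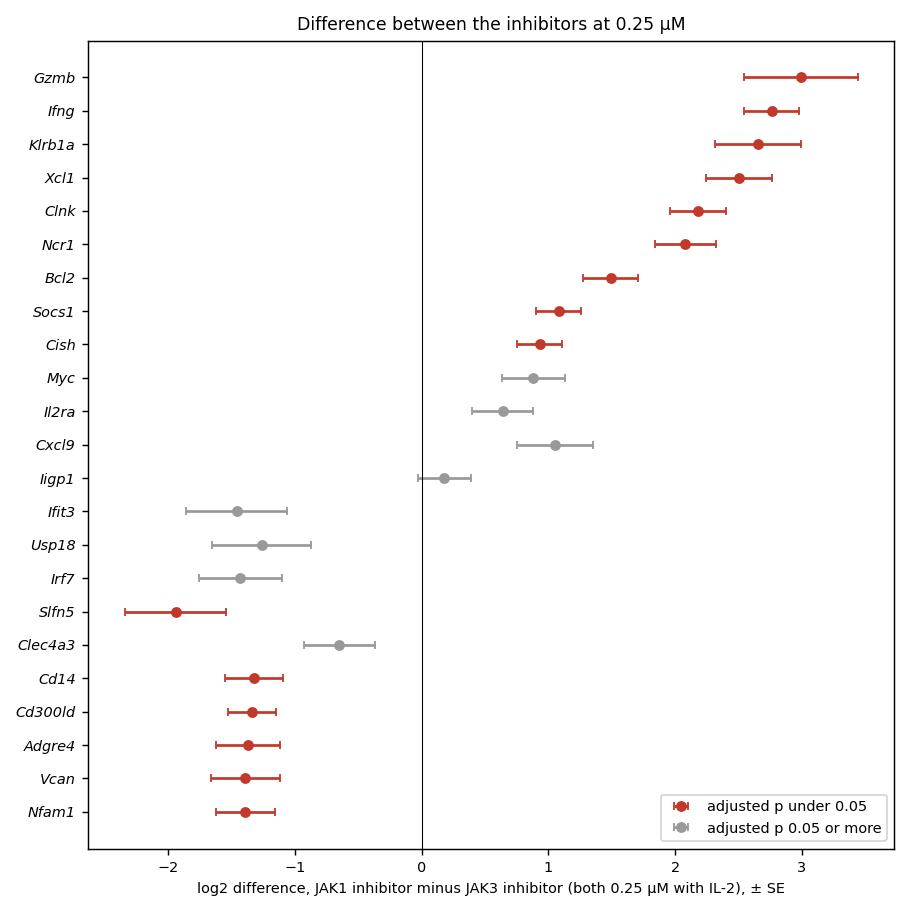
Fitted log2 difference between the JAK1 and the JAK3 inhibitor at 0.25 µM (2 samples each, both with IL-2) for 23 genes, with bars of 1 SE, red where the adjusted p was under 0.05 and grey elsewhere. Effector and receptor genes from Gzmb to Cish lie right of 0, Slfn5 and the myeloid genes from Cd14 to Nfam1 lie left of it, and Myc, Il2ra, Iigp1 and Ifit3 are among the genes not called.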

How the data were processed

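Each of 19 samples of mouse splenic NK cells was measured on 1 array. The authors deposited linear intensity values, made with Affymetrix Power Tools and RMA per the submitters' processing notes (no versions or settings are given there). Background and detection values were not used here, and precision is limited by the number of arrays. Intensities were turned into log2. The table held 24922 probe sets, and the 21425 with a single symbol were kept. Those with several symbols (1399) or with no entry in the annotation (2098) were left out, and 921 genes with more than 1 probe set took the brightest by mean. Some genes were not analysed here.

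Values lay on 2 scales (7 samples with a log2 median above 6.6, 12 below), and the sources used here do not say which arrays were processed jointly. Using limma 3.58.1 (R 4.3.3), lmFit took all 19 samples with group means and the scale set as terms, followed by eBayes with an intensity trend (9 residual and 10.5 prior degrees of freedom), with Benjamini-Hochberg adjustment over 19752 genes and a threshold of 0.05. Adjusted p-values in the text are from this fit unless a left-out sample or a block is named. Intervals are 95% intervals of the fitted difference. The fit was tested on simulated data with independent noise in each sample. Deviations shared between samples and values tied across samples were not simulated. The comparisons were the JAK1 inhibitor at 0.25 µM against untreated cells, IL-2 alone and the JAK3 inhibitor at 0.25 µM. Values of IL-2 alone against untreated cells share the untreated samples and are given side by side only.

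The comparison and all gene lists (28 response lists with 698 of 749 entries measured, 10 marker lists with 118 of 132) were chosen with earlier results of these data known. Lists are described by counts and medians. Some genes, such as Gzmb, Prf1, Ifng and Socs1, stand in more than 1 list, so counts of different lists are not independent. Genes named are the largest rises and falls of each comparison, up to 4 members of a list with the smallest p, and a panel of IL-2 and interferon genes; predicted genes could be passed over. Alternatives were quantile normalization, median centring, leaving out the lowest 25% of genes by mean, no intensity trend, the mean of probe sets, the replicate block, each scale set alone, only the compared groups, and leaving out each sample. Promoters are from RefSeq (GRCm38.p6).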

Additional observations from a re-analysis of the deposited data

Results flagged for a closer look

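In the 4 IL-2 samples, 1 sample stood far from the others for 7 of 127 values, by the gap to the nearest sample divided by the group's range (Dixon's critical value 0.829; chance gives about 1 in 20, and 5.51% were found). Replicate 1 was lowest for Thy1 (0.914), Socs2 (0.836), Myc (0.837), and the mean over the endoplasmic reticulum chaperone genes (0.930) and the NF-kappaB pathway genes (0.861). Replicate 3 was highest for Cxcl10 (0.832), and replicate 4 was lowest for Atp5g1 (0.933). These samples enter the comparison of the JAK1 inhibitor with IL-2 alone and the shared estimate of the spread. Groups of 2 and 3 samples were not examined in this way.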

How the results depend on the processing

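No called value of a single named gene changed sign among the alternatives run. Of 2377 values of single named genes under an alternative, 1748 kept their side of the threshold, 594 lost a call, 14 gained one and 21 were uncalled values that changed sign. Of the named genes called, 28 of 72 kept the call against untreated cells without any 1 sample, 8 of 41 against IL-2 alone and 4 of 37 against the JAK3 inhibitor. Against untreated cells (261 genes called) the counts were 786 with quantile normalization, 107 with only the compared groups, 0 within the high-intensity set (limma, 1236 at an unadjusted p under 0.05; 1 residual degree of freedom), 14 within the low-intensity set and 63 to 361 without 1 sample. With the replicate block 344 genes were called (302 higher and 42 lower), 178 of them among the 261. Against IL-2 alone (445) they were 1202 with quantile normalization, 1770 with only the compared groups, 134 with the replicate block (79 higher and 55 lower, where 144 were higher and 301 lower without it), 0 within the high-intensity set (limma, 787 at an unadjusted p under 0.05), 53 within the low-intensity set and 32 to 723 without 1 sample. Against the JAK3 inhibitor (89) they were 299 with quantile normalization, 33 with median centring, 1114 with only the compared groups (306 higher and 808 lower), 348 with the replicate block (119 higher and 229 lower, where 47 were higher and 42 lower without it), 0 within either set (limma, 727 and 862 at an unadjusted p under 0.05) and 5 to 23 without 1 sample. Replicate numbers were not treated as pairing, since no label ties a number to a mouse or day. Even so, deviations from the group means correlated at 0.417 between JAK1 inhibitor and untreated replicate 2. Between JAK1 inhibitor and IL-2 replicates 1 and 2 they correlated at 0.283 and 0.371. In a group of 2 samples the deviations are mirror images, so the values 0.283 and 0.371 are not independent. The main fit does not model such shared deviations. Deviations of same-numbered samples of the 2 inhibitors correlated at -0.32, which is 1 value for both numbers. A block with crossed numbers, chosen after seeing the data, called 149 (62 higher and 87 lower). The cause of these shifts was not tested, and some of the fits held fewer samples. A group left with 1 sample was assumed to vary like the others. With 2 inhibitor samples, 1 in each scale set, and 3 untreated samples of which 1 has no culture time, small differences cannot be seen.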

Other observations

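Immediate early genes of receptor signalling were among those still raised with the JAK1 inhibitor. Over all genes, 0.982% were higher than in untreated cells and 0.339% lower. Of 24 AP-1, EGR and MAPK feedback genes, 4 rose over untreated cells and 0 fell: the nuclear receptor genes Nr4a2 (1.26) and Nr4a3 (1.12) and the zinc finger factors Egr1 (0.98) and Egr2 (1.00), against 1.03, 1.12, 1.20 and 0.91 with IL-2 alone in the same order. Nr4a2 stood at 8.23 and 8.27 in the JAK1 inhibitor samples and 7.92, 7.67, 8.37 and 8.10 in the IL-2 samples, against 7.26, 6.71 and 6.99 in untreated cells, so the inhibitor and IL-2 samples overlapped above the untreated ones. Without JAK1 inhibitor replicate 2, 0 of the 4 were called (limma; adjusted p = 0.0549 for Nr4a2, 0.373 for Nr4a3, 0.354 for Egr1 and 0.498 for Egr2). Of 15 TNF superfamily receptor genes, 3 were higher, with Tnfrsf18 (GITR, 1.29) and Cd27 (1.11) beside Tnfrsf9, and 1 was left without either inhibitor sample (Tnfrsf18 at 0.0504 and 0.0586, Cd27 at 0.208 and 0.306 without replicate 1 and 2). Cd27 had 0.067 without untreated replicate 2. The integrin gene Itga2 (CD49b), an NK cell marker, rose by 1.23 (adjusted p = 0.285 without JAK1 inhibitor replicate 2), alone among 19 chemokine receptor, integrin and exit genes.

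Metabolic lists showed few calls, but so did all genes (0.982% higher and 0.339% lower). Of 25 sterol and fatty acid synthesis genes and of 21 glycolysis genes, 0 were called against untreated cells by limma. At an unadjusted p under 0.05 there were 2 and 6, against 1822 of all 19752 genes. In the amino acid transporter list of 22 genes, Wars was higher and the cystine transporter gene Slc7a11 lower (-1.10), a fall lost without either inhibitor sample (0.185 and 0.38), without untreated replicate 2 (0.077) and without untreated replicate 4 (0.0748). Of 28 JAK-STAT component and receptor genes 3 were higher, among them Il12rb2, a chain of the IL-12 receptor (1.36), and 1, Il7r, was lower. Of 15 BCL2 family genes 2 were higher, Bcl2 and Bcl2l1 (0.67). Of 31 FOXO target and quiescence genes, 2 were higher, the GTPase genes Gimap4 (0.72) and Gimap7 (0.71), and 1, Il7r, was lower. Both Gimap calls were lost without either inhibitor sample (0.333 and 0.277 for Gimap4, 0.371 and 0.343 for Gimap7) and without untreated replicate 4 (0.0858 and 0.0562), and that of Gimap7 also without untreated replicate 3 (0.0876). With median centring the adjusted p was 0.113 for Gimap4 and 0.112 for Gimap7. Of 21 NF-kappaB pathway genes, Tnip3 alone was called, and it fell by 0.97 on the log2 scale. Without JAK1 inhibitor replicate 2 the adjusted p was 0.119 for Il12rb2, 0.432 for Bcl2l1 and 0.0786 for Tnip3, and without replicate 1 it was 0.248 for Bcl2l1 and 0.16 for Tnip3. Bcl2l1 also lost its call without untreated replicate 3 (0.0833) or 4 (0.0626). Erythroid, platelet, and basophil and mast cell markers had 0 calls among 6, 8 and 9 genes by limma (1, 0 and 1 at an unadjusted p under 0.05).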
